A study of Mus musculus with 6 samples.

Results

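Rora, Maf, Ahr and Stat3 encode 4 transcription factors of the state that gut bacteria induce in regulatory T cells (Tregs) of the colon, a state that shares much of its transcriptional machinery with inflammatory Th17 cells. They were followed here by gene symbol. Each has 1 row in the table of 24537 genes, and all 4 were among the 13211 genes tested. The data are RNA-seq transcript levels of mouse colon Tregs from 6 libraries, 3 labelled REV-ERB KO and 3 labelled REV-ERB WT. All 6 came from mice with TNBS-induced colitis, so colitis is common to both groups. TNBS is a hapten that provokes a T cell driven inflammation of the bowel wall. Mice were sensitized through the skin with 150 µl of 1% TNBS, and 7 days after that received 100 µl of 2.5% TNBS rectally, per the labels' protocols. The sources used here do not give strain, sex, age, deleted exons, Cre driver or sorting gate, nor which REV-ERB gene was deleted. The comparison asks how Tregs of the inflamed colon differ when REV-ERB, a repressive nuclear receptor of the circadian clock, is lost.

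RORα, the product of Rora, is a nuclear receptor that activates genes through the same DNA half-site at which REV-ERBα represses them. It is known in T cells as a driver of the Th17 program and in tissue Tregs as a regulator of their migration and function. c-MAF, the product of Maf, is a bZIP factor required in mice for the bacteria-induced colon Treg and for much of its IL-10. The aryl hydrocarbon receptor, the product of Ahr, binds dietary and microbial ligands, pairs with ARNT and supports gut homing of Tregs. STAT3 is phosphorylated downstream of the receptors for IL-6, IL-21, IL-23 and IL-10, and in Tregs it equips the cells to restrain Th17 responses.

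The REV-ERB transcripts were examined first. Nr1d1, which encodes REV-ERBα, stood at 169.2, 154.3 and 141.4 TPM in KO libraries and at 66.3, 104.0 and 88.2 TPM in WT libraries. Every library labelled KO lay above every library labelled WT (0.86, limma adjusted p = 0.130). Nr1d2, which encodes REV-ERBβ, overlapped at 68.8 ± 18.2 TPM in KO and 61.0 ± 10.04 TPM in WT (SD, n = 3 each). Neither transcript was lower in the libraries labelled KO. Without the deleted exons these rows do not check the labels, and KO and WT below mean the libraries so labelled.

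Of the 4 factors, Maf had the lowest level in KO relative to WT, and it was the only one of the 4 whose groups did not overlap. Every KO library lay below every WT library for Maf, as it did for 10.4% of all genes tested. Ahr was lower in KO on average, but with overlapping groups, and Rora and Stat3 differed by less than their spread. None of the 4 passed the threshold (limma, Benjamini-Hochberg adjusted p under 0.05 over all genes tested), and neither did any other gene, so percent called was 0. At an unadjusted limma p under 0.05 there were 2068 genes, or 15.7%, and Maf was the 1 member among them. The number of genes past the threshold was also 0 with voom on recovered reads, where 2180 had an unadjusted p under 0.05. With array weights, which let noisier libraries count for less, it was 582, Maf among them. The weights were lowest for KO 3 (0.427) and WT 1 (0.587) and highest for WT 3 (2.1). KO 3 and WT 1 were the highest KO and the lowest WT library for Maf, so this fit counted less the libraries that brought its groups closest. Without WT 1, 14 genes passed, and none of the 4 was among them. The values are TPM, a level scaled to transcript length and to the total of the library, so levels of different genes can be set side by side. Differences are KO minus WT on the log2(TPM + 1) scale.

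Maf (NM_001025577, mm10 chromosome 8, 115703253 to 115706894, minus strand) had levels of 203.5, 212.5 and 262.9 TPM in KO libraries 1, 2 and 3. It stood at 316.4, 450.0 and 424.5 TPM in WT libraries 1, 2 and 3. The gap between the highest KO library, KO 3, and the lowest WT library, WT 1, was smaller than the spread among the WT libraries. The mean was 226.3 ± 32.0 TPM in KO and 397.0 ± 70.9 TPM in WT (SD, n = 3 each), a KO level of 0.570 of the WT level. KO minus WT came to -0.80 log2 units with a 95% interval of -1.17 to -0.43 (SE 0.161, limma adjusted p = 0.130), and to -0.94 with array weights (limma adjusted p = 0.0230). Only 1.63% of the genes tested had a lower difference, and Maf ranked 117 by p. An exact two-sided permutation test gave p = 0.1, the smallest that 3 against 3 libraries allow. The values rest on 6264 to 12667 reads per library, so counting error is small beside the spread.

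Ahr (NM_013464, chromosome 12, 35497979 to 35534989, minus strand) stood at 38.8, 38.6 and 47.8 TPM in KO libraries and at 46.4, 54.0 and 49.8 TPM in WT libraries. KO 1 and KO 2 lay below all 3 WT libraries, while KO 3 lay above WT 1. The means were 41.7 ± 5.27 TPM in KO and 50.03 ± 3.81 TPM in WT (SD, n = 3 each). The difference of -0.26 had a 95% interval of -0.55 to 0.03 (SE 0.124, limma adjusted p = 0.358, exact permutation p = 0.2).

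Rora (NM_001289916, chromosome 9, 69289841 to 69388246, plus strand) stood at 188.7, 144.0 and 130.8 TPM in KO libraries and at 183.8, 176.8 and 156.3 TPM in WT libraries. The highest value of all 6 was KO 1 and the 2 lowest were KO 2 and KO 3, so the KO libraries spanned the WT range. The means were 154.5 ± 30.3 TPM in KO and 172.3 ± 14.3 TPM in WT (SD, n = 3 each), with a difference of -0.17 and a 95% interval of -0.51 to 0.17 (limma adjusted p = 0.603, exact permutation p = 0.4). Without KO 1 the difference was -0.32, and relative to the T cell markers it was 0.06. The row is the transcript of a downstream start, 636.4 kb into a gene that RefSeq draws over 734.8 kb, and it spans 98.4 kb. Exons found only in longer transcripts of the gene are not part of it. Gm15511, a noncoding RNA on the opposite strand within the row, had 0 reads in every library, and no row overlapped the other members.

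Stat3 (NM_011486, chromosome 11, 100886806 to 100939540, minus strand) was the most abundant of the 4, at 577.0, 479.6 and 410.0 TPM in KO libraries and 495.4, 470.5 and 450.6 TPM in WT libraries. The WT libraries lay close together and within the range of the KO libraries. The means were 488.9 ± 83.9 TPM in KO and 472.2 ± 22.4 TPM in WT (SD, n = 3 each). The difference of 0.04 had a 95% interval of -0.28 to 0.35 (limma adjusted p = 0.911, exact permutation p = 0.8), and it was -0.09 without KO 1. That interval leaves room for a change of either sign.

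**Figure D1:**
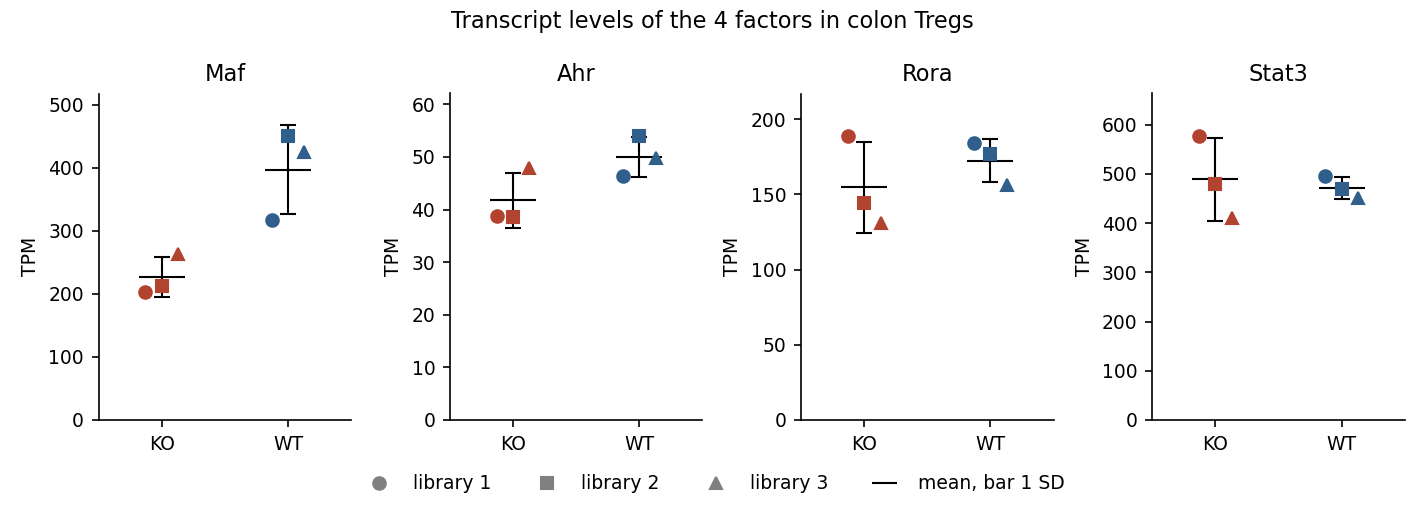
TPM of Maf, Ahr, Rora and Stat3 in each library, KO left and WT right in each panel; symbols are libraries 1 to 3, the black line is the mean and the bar 1 SD. The 3 KO libraries sit below the 3 WT libraries for Maf, and the groups overlap for the other 3 genes.

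The order of the levels was the same in both groups, Stat3 above Maf, Maf above Rora and Rora above Ahr. In KO no neighbours in this order overlapped, though the lowest Maf library (203.5 TPM) was close to the highest Rora library (188.7 TPM). In WT the lowest Stat3 library (450.6 TPM) and the highest Maf library (450.0 TPM) were almost level. Stat3 averaged 2.16 times Maf in KO and 1.19 times Maf in WT, while Rora averaged 3.70 times Ahr in KO and 3.44 times Ahr in WT. Within the libraries, Stat3 exceeded 98.5% to 98.9% of the genes tested and Ahr 74.0% to 81.3%.

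A ratio of 2 factors within a library is free of any scale common to that library, and 6 such pairs were compared. Maf against Ahr gave log2 ratios of 2.36, 2.43 and 2.43 in KO libraries and 2.74, 3.04 and 3.07 in WT libraries. All KO ratios were below all WT ratios, with a difference of -0.54 (exact permutation p = 0.1, adjusted over the 6 pairs 0.3). Rora against Stat3 gave -1.61, -1.73 and -1.64 in KO libraries and -1.43, -1.41 and -1.52 in WT libraries. Its SD was 0.0624 in KO and 0.0617 in WT (n = 3 each), although Rora and Stat3 each varied widely among KO libraries. Its difference of -0.21 also left the groups apart (exact permutation p = 0.1, adjusted 0.3), and over the leave-one-out values it ran from -0.24 to -0.17. Maf against Stat3 had the largest difference of the 6, at -0.84, but KO 3 (-0.64) lay just above WT 1 (-0.65), and the exact permutation p was 0.2. Maf against Rora differed by -0.63 (exact permutation p = 0.2), Ahr against Stat3 by -0.30 (exact permutation p = 0.4) and Ahr against Rora by -0.09 (exact permutation p = 0.8), all with overlapping groups. No pair could pass at this number of libraries.

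**Figure D2:**
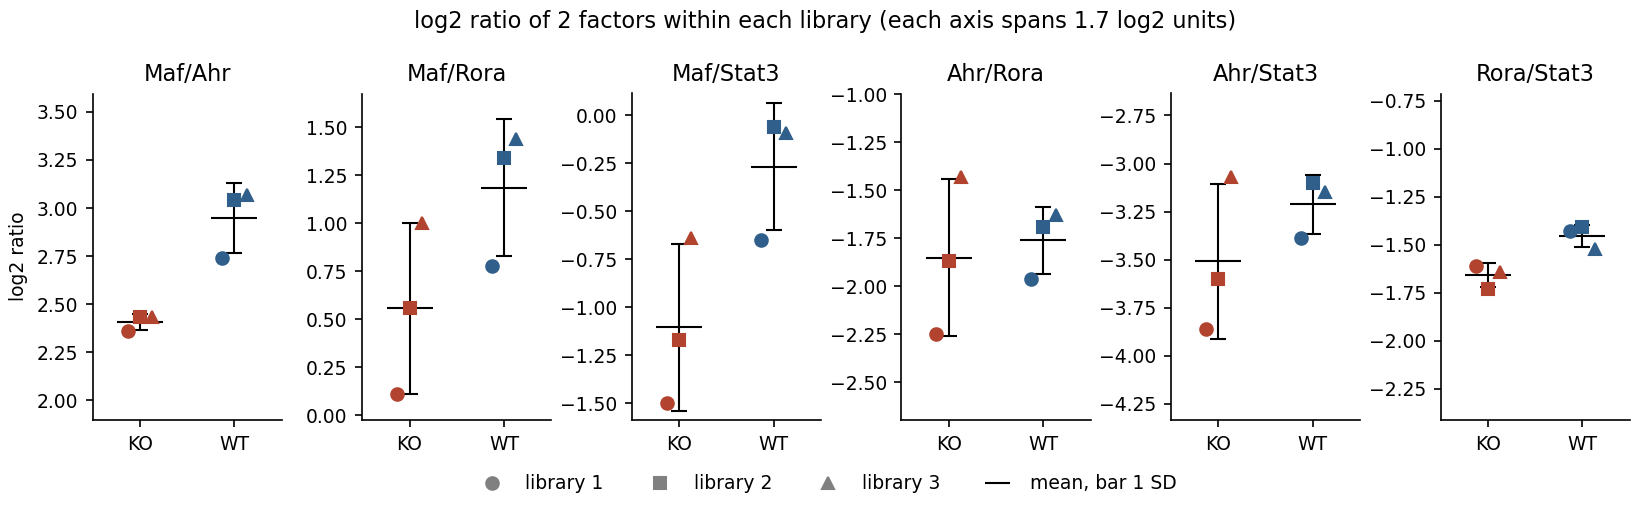
log2 ratio of each pair of factors within each library, KO left and WT right; each axis spans the same 1.7 log2 units, the line is the mean and the bar 1 SD. Maf/Ahr and Rora/Stat3 are the pairs whose groups do not overlap.

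RNA of other cells was present, and T cell transcripts differed between the groups. The 10 T cell markers summed to 3143 to 3613 TPM in KO and 3676 to 4052 TPM in WT, without overlap (exact permutation p = 0.1). Cd4 stood at 419.9 ± 8.14 TPM in KO and 492.2 ± 35.9 TPM in WT, and Cd3e at 190.4 ± 29.5 TPM in KO and 257.3 ± 57.0 TPM in WT (SD, n = 3 each). The 8 Treg markers summed to 4960 to 6036 TPM in KO and 6253 to 6937 TPM in WT. Ctla4 had the highest level of them, at 2091 ± 223 TPM in KO and 2743 ± 126 TPM in WT (SD, n = 3 each). Of the 8, 5 were below and 3 above 0 in difference. At an unadjusted limma p under 0.05, 3 were lower and 0 higher in KO. Foxp3, which defines Tregs, was present in all 6 libraries, at 171.4 to 235.0 TPM in KO and 451.4 to 663.7 TPM in WT. All 16 epithelial markers were above 0 in difference, and they summed to 3248 to 6369 TPM in KO and 2248 to 3179 TPM in WT (exact permutation p = 0.1). The 11 macrophage and dendritic cell markers, whose cells also transcribe Maf, were all detected. They summed to 901 to 1638 TPM in KO and 861 to 1370 TPM in WT, with overlap. All 11 were above 0 in difference, and none reached an unadjusted limma p under 0.05. None of their defining genes was at 0, with Csf1r at 43.2 to 93.2 TPM in KO and 38.3 to 69.2 TPM in WT. The 7 CD8 T and NK cell markers summed to 12.2 to 27.1 TPM in KO and 16.5 to 29.9 TPM in WT, with overlap. Of these, 5 passed the filter, among them Cd8b1 at 4.67 to 6.38 TPM in KO and 5.21 to 7.35 TPM in WT, while Cd8a and Eomes did not. The 10 neutrophil, mast cell and eosinophil markers summed to 5.48 to 53.1 TPM in KO and 3.38 to 10.06 TPM in WT. Of the 3 that passed the filter, 2 were higher in KO at an unadjusted limma p under 0.05, S100a8 and S100a9, which neutrophils express strongly. S100a8 stood at 1.22, 5.57 and 8.57 TPM in KO libraries and was listed at 0 in all WT libraries. It passed the filter only through the KO libraries, so its call is no result. S100a9 overlapped, with KO 1 (0.911 TPM) below WT 2 (0.996 TPM) and WT 3 (2.57 TPM). The 6 B and plasma cell markers considered overlapped in sum. They summed to 2079, 1340 and 538 TPM in KO libraries and 1537, 1462 and 714 TPM in WT libraries. The 9 fibroblast and smooth muscle markers summed to 280 to 529 TPM in KO and 211 to 491 TPM in WT, with overlap. All 9 were above 0 in difference, and none reached an unadjusted limma p under 0.05. The 6 endothelial markers summed to 50.3 to 68.9 TPM in KO and 39.3 to 54.9 TPM in WT, with overlap. S100b and Sox10, which mark glia, were at 0. What part these other cells had in the values of the 4 factors was not tested beyond the 2 fits that follow. The fit with the epithelial covariate cannot separate that part from genotype, as given there. In bulk samples, fewer cells of a type and less RNA per cell cannot be told apart.

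Relative to the mean of the T cell markers, a scaling that moved the median of all genes to 0.22, Maf differed by -0.57 (limma adjusted p = 0.148), Ahr by -0.03, Rora by 0.06 and Stat3 by 0.26. With the epithelial score as a covariate, Maf differed by -0.45 (limma adjusted p = 1.00), Rora by -0.18 and Stat3 by -0.06, and Ahr was level with a difference of -0.0036. The epithelial score ran from 6.89 to 7.71 in KO libraries and from 6.16 to 6.69 in WT libraries, without overlap. Because it follows the labels, the covariate fit cannot tell epithelial RNA from genotype, and no conclusion is drawn from it. Maf was lower in KO in both fits, and Ahr was close to level in both. Rora turned relative to the T cell markers and Stat3 turned with the covariate.

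The genes around each factor are described next by lists of partners, relatives and response genes. Their differences are read from the same fit, and their counts use an unadjusted limma p under 0.05, which 7.86% of genes tested met in the direction of lower in KO and 7.80% in the direction of higher in KO. Groups did not overlap for 21.0% of the genes tested. The median difference of all genes tested was -0.0028. Among the genes counted in these lists and named below, Mafa, Il10ra, Il27ra, Myc, Ikzf3 and Bhlhe40 lost an unadjusted p under 0.05 when some single libraries were left out. Il4, Il17f and Il1rl1, also counted and named, were not followed with libraries left out.

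Among the 3 tested ROR and REV-ERB receptor genes considered here, 0 were lower and 1 was higher in KO (median 0.15). The higher one was Nr1d1, and Nr1d2 overlapped like Rora, as given above. Rorb, a neuronal relative, was below the filter.

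Response genes of the ROR receptors differed in both directions. Of 7 Th17 genes, 3 were higher and 2 lower in KO at an unadjusted p under 0.05, with a median of -0.08. Il17a, a cytokine of Th17 cells, stood at 34.1, 42.3 and 48.3 TPM in KO libraries and at 24.1, 20.1 and 14.8 TPM in WT libraries (1.06, limma adjusted p = 0.130). Ccl20, the ligand of CCR6, stood at 58.0 ± 8.74 TPM in KO and 21.3 ± 7.10 TPM in WT (1.45, limma adjusted p = 0.119). In the same list the receptor gene Ccr6 stood at 67.7, 57.2 and 69.2 TPM in KO libraries and at 102.6, 118.9 and 90.5 TPM in WT libraries (-0.67, limma adjusted p = 0.130). Ligand and receptor thus differed in opposite directions, each without overlap. Il23r, the IL-23 receptor chain, overlapped at 22.04 ± 7.79 TPM in KO and 30.6 ± 4.19 TPM in WT. Of 8 clock genes listed beside the Th17 genes, 3 were higher and 0 lower in KO, with a median of 0.21. They were Nr1d1, Npas2 at 8.53 ± 0.709 TPM in KO and 4.42 ± 1.30 TPM in WT, and Dbp at 29.7 ± 4.70 TPM in KO and 19.6 ± 2.45 TPM in WT (SD, n = 3 each). Arntl (Bmal1), the textbook gene that RORα activates and REV-ERBα represses, overlapped at 33.2 ± 3.14 TPM in KO and 38.1 ± 1.74 TPM in WT (-0.20, limma adjusted p = 0.439).

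The half-site shared by RORs and REV-ERBs reads AGGTCA. Its letters were searched on both strands in RefSeq promoter windows of GRCm38.p6, from 250 bases before to 50 bases after each gene start, and 16.3% of all 32851 windows hold them. They occur in windows of 5 of the 7 Th17 genes and of 3 of the 7 clock genes that have a window. A gene was counted if any of its windows holds them, and some genes have several, so these counts and the share per window are not alike. The match of Clock lies in a window of another start than that of its measured row. Of the 4 factors, Stat3 and Rora have a window. Neither holds these letters, and the Rora window belongs to the upstream start, not to the row measured here. The stretches below show the match in 60 bases of upstream sequence for the 5 Th17 genes, which include genes higher and genes lower in KO. Each reads 5′ to 3′ on the gene's strand, and capitals mark AGGTCA or its reverse complement TGACCT.
Il17a, chr1:20730759-20730818, plus strand: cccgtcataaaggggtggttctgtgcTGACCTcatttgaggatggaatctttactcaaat
Il17f, chr1:20784295-20784354, minus strand: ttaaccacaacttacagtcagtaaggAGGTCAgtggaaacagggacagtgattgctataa
Ccl20, chr1:83116566-83116625, plus strand: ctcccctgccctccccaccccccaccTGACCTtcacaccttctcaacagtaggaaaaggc
Ccr6, chr17:8235973-8236032, plus strand: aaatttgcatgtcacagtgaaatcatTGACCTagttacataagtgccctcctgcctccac
Il23r, chr6:67492046-67492105, minus strand: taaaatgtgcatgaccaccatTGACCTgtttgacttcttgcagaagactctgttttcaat
The match begins 120 bases before the start of Il17a (written -120), at -58 for Il17f, -174 for Ccl20, -44 for Ccr6 and -229 for Il23r. The Il23r window holds 2 matches, of which 1 is shown. A match of letters is a description and not a bound site. Il17f, whose sequence stands beside that of Il17a, was measured at 27.2 ± 8.97 TPM in KO and 10.4 ± 4.35 TPM in WT (SD, n = 3 each).

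Of 8 genes that c-MAF is known to regulate in T cells, 4 were lower and 1 higher in KO at an unadjusted p under 0.05, with a median of -0.58. The count of 4 was also found without KO 2, without WT 1 and relative to the T cell markers, and it was 1 with the epithelial covariate. Il10, the inhibitory cytokine that c-MAF activates, stood at 550.5, 499.7 and 551.8 TPM in KO libraries and at 633.4, 1307 and 1000.3 TPM in WT libraries (-0.82, limma adjusted p = 0.207). Cxcr5, a chemokine receptor of follicular T cells, stood at 13.6, 20.3 and 19.9 TPM in KO libraries and at 31.9, 39.5 and 31.7 TPM in WT libraries (-0.92, limma adjusted p = 0.130). Icos, a costimulatory receptor, averaged 564.9 ± 23.6 TPM in KO and 890.7 ± 131.8 TPM in WT (-0.65, limma adjusted p = 0.130). Ccr6, given above, is the other of the 4. Il4, a cytokine that c-MAF activates in Th2 cells, lay the other way, at 4.70, 17.1 and 26.2 TPM in KO libraries and 1.59, 1.34 and 4.84 TPM in WT libraries (2.10, limma adjusted p = 0.195). Its groups overlapped, with KO 1 just below WT 3 (exact permutation p = 0.2). Among the 9 tested members considered of the MAF and related bZIP family, 2 were lower and 0 higher in KO. They were Maf itself and Mafa, which was near the filter at 0.733 ± 0.349 TPM in KO and 1.78 ± 0.118 TPM in WT (SD, n = 3 each). Of the KO libraries only KO 1 (1.10 TPM) reached the filter level. Mafa thus passed the filter through the WT libraries, and its call is no result.

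All 8 genes of the list of AHR and its partners and chaperones were at or below 0 in difference, with a median of -0.24, and 2 of them were lower at an unadjusted p under 0.05. Arnt, the obligate dimer partner, stood at 40.6, 39.1 and 39.3 TPM in KO libraries and at 46.8, 56.7 and 52.2 TPM in WT libraries. No KO library overlapped a WT library, and the KO values were within 2 TPM of each other (-0.38, limma adjusted p = 0.203). Arnt2, the related partner, stood at 26.5 ± 5.76 TPM in KO and 42.3 ± 3.84 TPM in WT (-0.67, limma adjusted p = 0.164). Hsp90aa1, a subunit of the chaperone that holds AHR in the cytosol, stood at 449.7 ± 25.1 TPM in KO and 527.6 ± 41.3 TPM in WT (-0.23, limma adjusted p = 0.336). Relative to the T cell markers the median of the list was -0.02.

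Of 10 AHR response genes, 6 were tested, with 4 below and 2 above 0 in difference and a median of -0.08. At an unadjusted p under 0.05, 0 were lower and 0 higher in KO. Beside the background share of 15.7%, that count in so short a list is no result about these genes. Cyp1a2 was at 0 in every library, and Cyp1b1, the cytochrome gene that AHR induces, was below the filter at 0 to 0.336 TPM in KO and 0 to 0.239 TPM in WT. Ahrr, the AHR repressor and a direct target, was low, at 1.04, 1.09 and 1.04 TPM in KO libraries and 0.805, 2.67 and 3.10 TPM in WT libraries. WT 1 lay below all KO libraries, and WT 2 and WT 3 above them (-0.55, limma adjusted p = 0.469). Gpr15, a colon homing receptor that AHR supports, stood at 62.5 ± 18.1 TPM in KO and 79.7 ± 2.28 TPM in WT (-0.38, limma adjusted p = 0.359). KO 1 lay above every WT library and the other 2 KO libraries lay below them all. Nqo1 and Ugt1a6a, which epithelial cells also express, differed by 0.44 and 0.40, and by -0.30 each with the epithelial covariate. Both were highest in KO 2, and without that library Nqo1 differed by 0.15 and Ugt1a6a by 0.17. The leave-one-out ranges were -0.92 to -0.32 for Ahrr and -0.60 to -0.24 for Gpr15. The AHR core letters GCGTG occur in 32.4% of all windows and in 4 of the 9 AHR response genes that have one. They are shown upstream of Ahrr, whose window holds 3 matches, 2 of them in this stretch, in capitals.
Ahrr, chr13:74292405-74292464, minus strand: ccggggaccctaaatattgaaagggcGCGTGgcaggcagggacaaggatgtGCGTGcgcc

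Among the receptors and kinases upstream of STAT3, Il6st had the largest difference. Il6st, which encodes gp130, the signalling chain shared by the receptors of the IL-6 family, stood at 83.1, 84.99 and 84.3 TPM in KO libraries. It stood at 139.5, 255.8 and 219.4 TPM in WT libraries, so the KO values were nearly identical and the lowest WT library lay far above them. The difference was -1.23 (SE 0.204, limma adjusted p = 0.119). It passed the threshold without WT 1 (-1.48) and with array weights (-1.33, limma adjusted p = 0.0230), and it was -0.89 with the epithelial covariate. Of the 13 receptors and kinases upstream of STAT3, 2 were lower and 1 higher in KO at an unadjusted p under 0.05, with a median of -0.21. Il27ra, the IL-27 receptor chain that pairs with gp130, was the second lower one, at 79.8 ± 18.4 TPM in KO and 104.4 ± 9.54 TPM in WT (-0.40, limma adjusted p = 0.305). Without KO 2 it differed by -0.26 and the count of lower genes was 1, and with the epithelial covariate it differed by 0.06. Il10ra, the IL-10 receptor chain, stood at 83.6, 62.0 and 70.2 TPM in KO libraries and at 51.5, 54.2 and 61.9 TPM in WT libraries (0.35, limma adjusted p = 0.280), with KO 2 and WT 3 almost level.

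None of 6 STAT3 inhibitors reached an unadjusted p under 0.05 (median -0.08), and of 10 STAT3 response genes 1 was higher and 0 lower in KO (median 0.06). At the background share of 15.7%, so few calls in lists of this size are no result about them. Socs3, the feedback inhibitor that STAT3 induces, stood at 128.2, 172.3 and 108.7 TPM in KO libraries and at 160.1, 155.9 and 144.9 TPM in WT libraries (-0.20, limma adjusted p = 0.591). The KO libraries spread to both sides of the WT libraries. Myc, a growth regulator, was the response gene counted, at 77.6 ± 6.69 TPM in KO and 64.8 ± 2.26 TPM in WT (0.26, limma adjusted p = 0.293). The STAT palindrome TTCNNNGAA, in which N is any base, occurs in 8.30% of all windows and in windows of 2 of the 9 STAT3 response genes that have one. Here too a gene was counted by any of its windows. The 2 genes were Socs3 and Bcl6, and the windows of Bcl6 do not begin at the start of its measured row. The palindrome is shown for Socs3 with the fixed letters in capitals.
Socs3, chr11:117969487-117969546, minus strand: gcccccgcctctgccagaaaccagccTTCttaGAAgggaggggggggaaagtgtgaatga

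Within the STAT family, 1 of the 6 genes considered was lower and 0 higher in KO. That share is close to the background of 15.7%, so the count is no result about the family. Stat2, a factor of the type I interferon response, stood at 31.0 ± 3.19 TPM in KO and 45.3 ± 4.37 TPM in WT (-0.53, limma adjusted p = 0.159). Stat4, the IL-12 effector, stood at 267.5, 195.4 and 178.8 TPM in KO libraries and at 189.1, 170.3 and 144.7 TPM in WT libraries (0.33, limma adjusted p = 0.384). The groups overlapped, with KO 1 the highest. Stat5b, the IL-2 effector, overlapped at 141.7 ± 17.9 TPM in KO and 163.6 ± 16.9 TPM in WT (SD, n = 3 each).

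**Figure D3:**
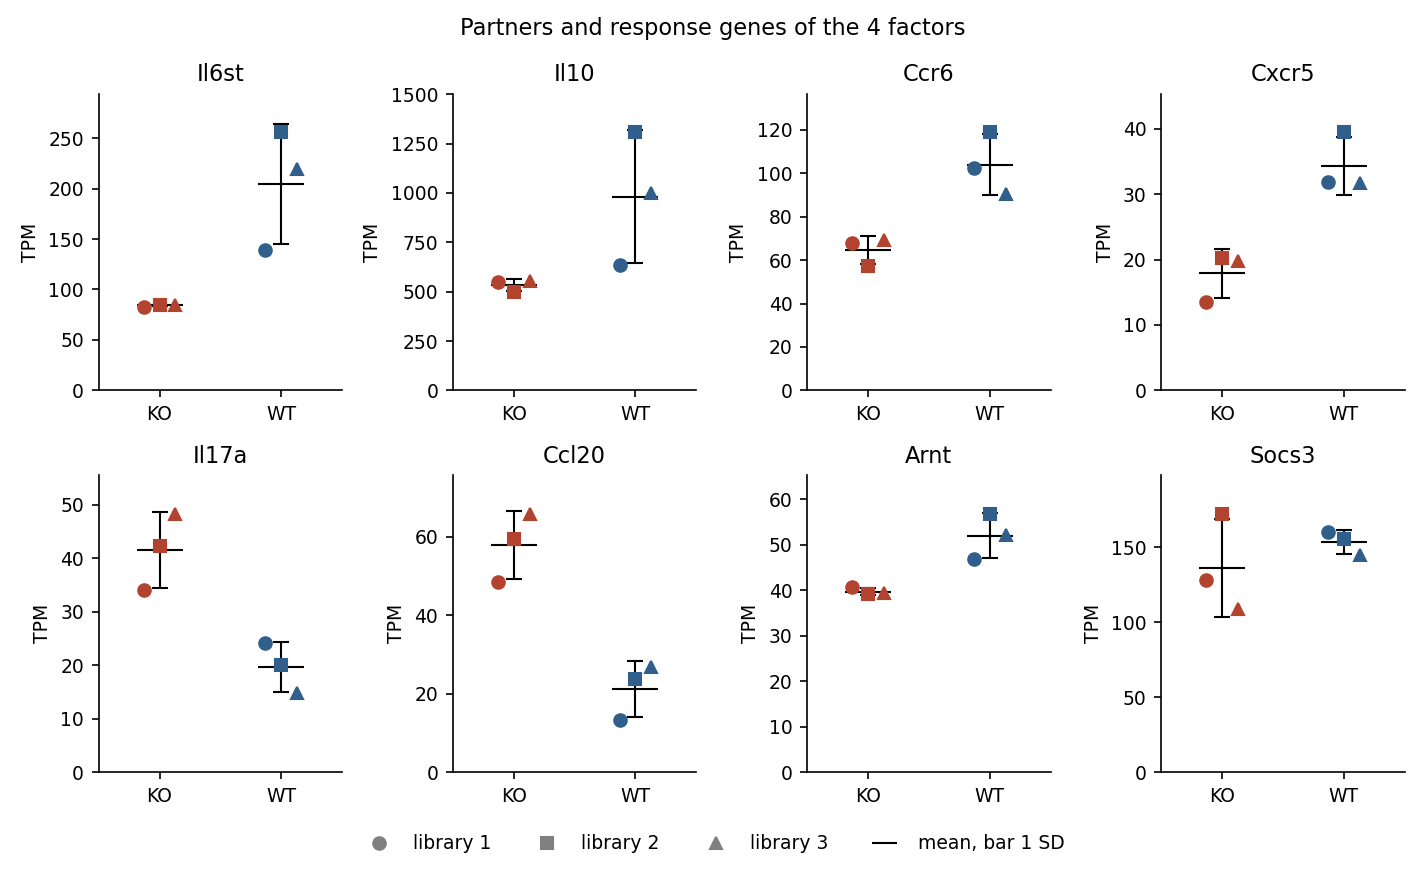
TPM in each library of Il6st, Il10, Ccr6, Cxcr5, Il17a, Ccl20, Arnt and Socs3, KO left and WT right; symbols are libraries 1 to 3, the line is the mean and the bar 1 SD. Il6st and Arnt hardly vary among KO libraries, Il17a and Ccl20 are higher in KO, and Socs3 overlaps.

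Other factors of the Th17 and bacteria-induced Treg state were split, with 2 of 10 lower and 2 higher in KO (median 0.01). Prdm1, which encodes Blimp-1, stood at 57.8 ± 8.75 TPM in KO and 89.1 ± 17.9 TPM in WT (-0.60, limma adjusted p = 0.207). Ikzf3, which encodes Aiolos, stood at 212.2 ± 18.3 TPM in KO and 325.3 ± 78.4 TPM in WT (-0.59, limma adjusted p = 0.221). Bhlhe40, an activation-induced repressor, stood at 784.3 ± 52.2 TPM in KO and 623.8 ± 56.8 TPM in WT (0.33, limma adjusted p = 0.238). Markers of other Treg states were likewise split, with 2 of 9 lower and 2 higher in KO (median -0.01). Gata3, the factor of type 2 and tissue repair Tregs, stood at 249.1, 166.4 and 221.5 TPM in KO libraries and at 126.8, 127.0 and 116.7 TPM in WT libraries (0.76, limma adjusted p = 0.130). All KO libraries lay above all WT libraries, the reverse of Maf. Foxp3 (-1.49, limma adjusted p = 0.0678) and Tbx21, the Th1 factor (-0.60, limma adjusted p = 0.195), were the 2 lower ones. Ikzf2, which encodes Helios and marks thymic Tregs, was level at 77.7 ± 12.9 TPM in KO and 80.7 ± 2.77 TPM in WT (SD, n = 3 each).

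**Figure D4:**
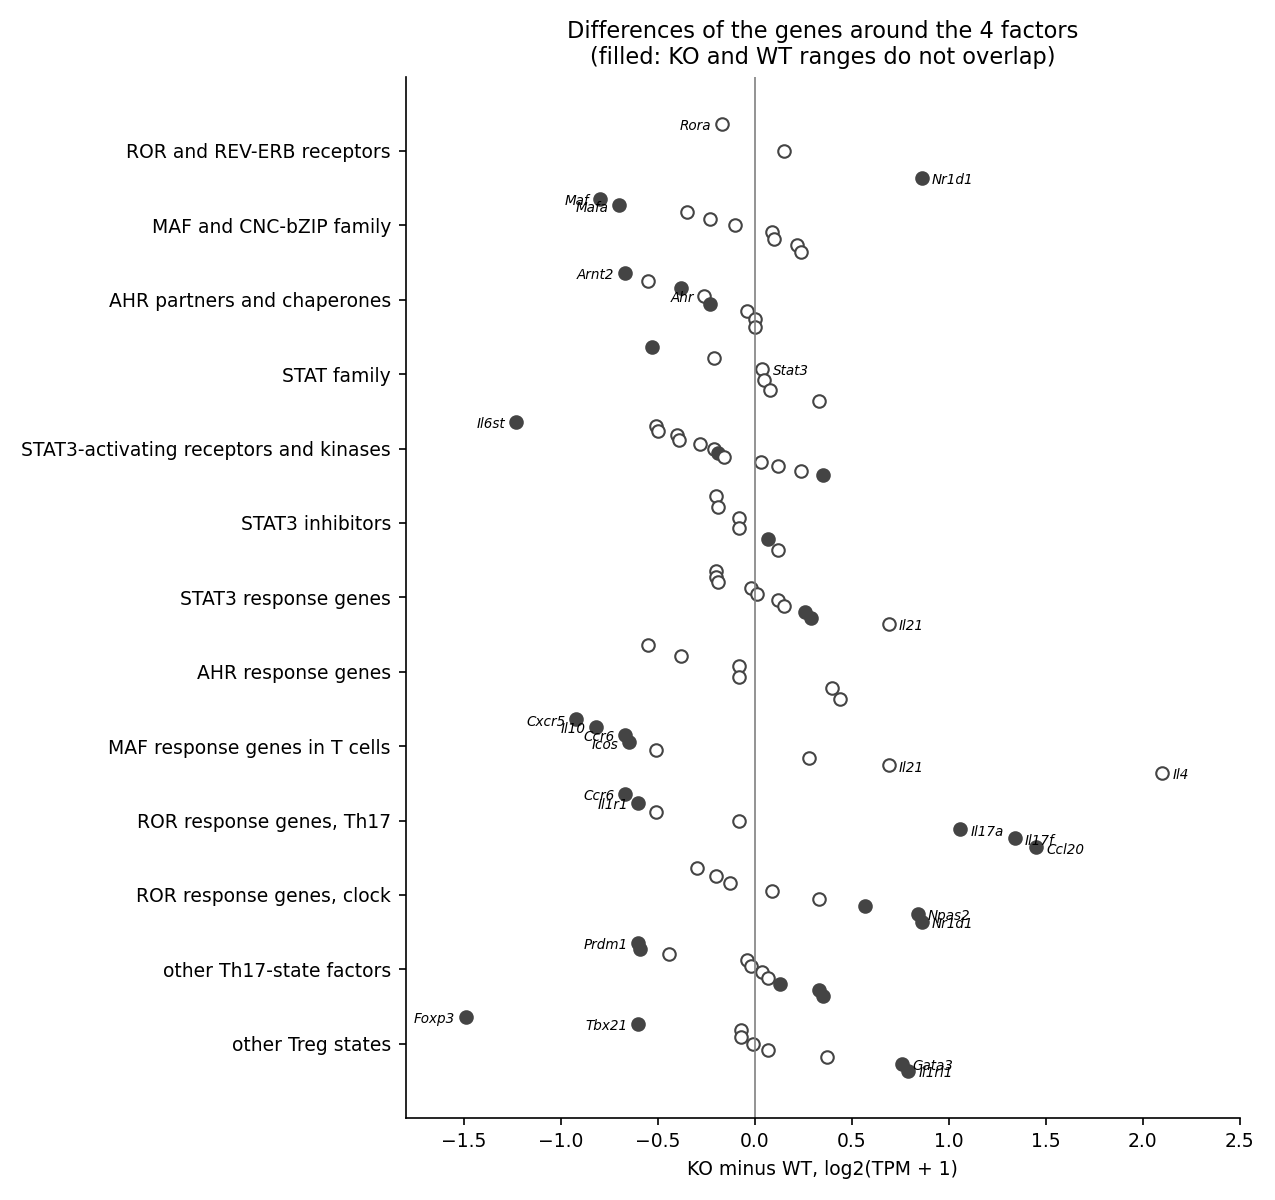
KO minus WT differences on the log2(TPM + 1) scale of the tested genes in each list; filled points are genes whose KO and WT ranges do not overlap. Il6st and Foxp3 lie farthest to the left and Ccl20 and Il4 farthest to the right, while Stat3 lies near 0.

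For each factor, the genes with the most similar profile over the 6 libraries were sought among 8279 genes with a mean of at least 10 TPM. Likeness was the root mean square difference between centred log2 profiles, in log2 units. Nearest to Maf were Tdrd3 (0.0598), Glcci1 (0.0606) and Ccdc88c (0.0635), where the profile of Maf itself varied by 0.445 about its mean. Tdrd3 stood at 12.4, 11.96 and 15.8 TPM in KO libraries and at 18.1, 27.2 and 27.8 TPM in WT libraries, so it shared the low WT 1 and the higher KO 3. Nearest to Ahr were Snx5 (0.0223), Rgs10 (0.0227) and Nup153 (0.0272), against 0.175 for Ahr about its mean. Nearest to Rora were Fam110a (0.0372), Cers4 (0.0414) and Wdr20 (0.0433), against 0.192 for Rora. Nearest to Stat3 were Ndel1 (0.0295), Kif13b (0.0359) and Sub1 (0.0389), against 0.149 for Stat3. Among so many genes and 6 libraries some close profiles are to be found for any gene, and these are given as a description.

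**Figure D5:**
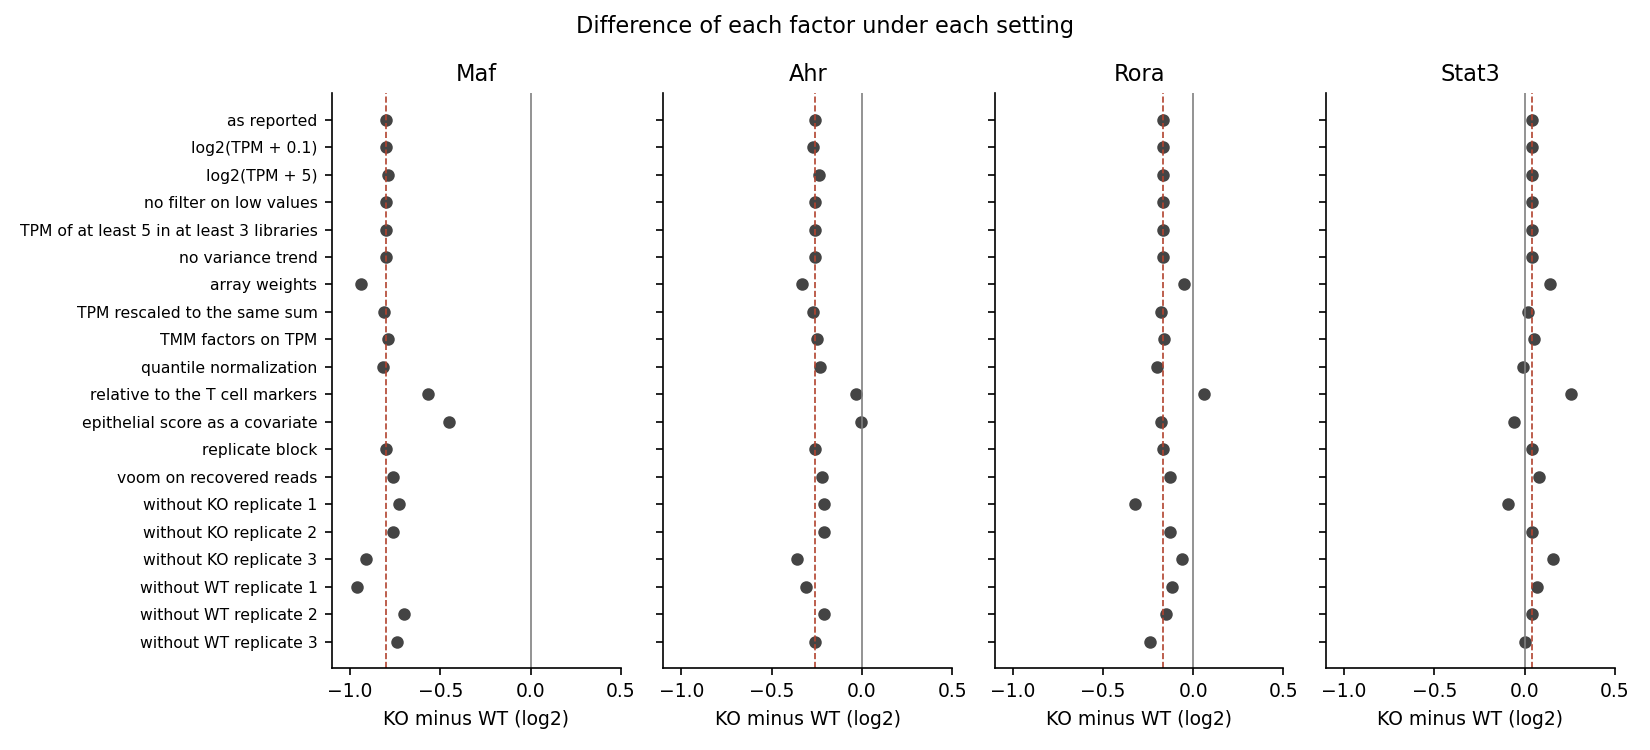
KO minus WT difference of each factor (log2, horizontal) under each setting (rows); the dashed line marks the reported value and the grey line 0. Maf is below 0 in every setting shown, from -0.96 to -0.45, while Stat3 falls on both sides of 0.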

How the data were processed

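RNA-seq libraries of colon Tregs were compared between 3 KO and 3 WT samples, grouped by their titles. The authors deposited TPM, with a RefSeq transcript in each row, per the file headers. The submitters' processing notes name FastQC 0.11.8, Trim Galore 0.4.4, STAR 2.5.3a, HOMER 4.9.1 and mm10, without order or settings. The kit marks strand, per the labels' protocols, but the sources do not say whether counting used it.

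In the 9557 to 11192 values checked per library, TPM times transcript length was a whole multiple of 1 step (within 0.1). Only values of up to 500 reads were checked, and those of the 4 factors are larger. These steps gave 12641850 to 15890630 reads per KO library and 9794480 to 12122575 per WT library. Genes of at least 1 TPM in at least 3 libraries were tested with limma 3.58.1 (R 4.3.3) with a variance trend on log2(TPM + 1), genotype as the only term and Benjamini-Hochberg adjustment. The scale understates changes of low genes. Exact permutation tests used SciPy 1.17.1 (Python 3.11.15). The labels name no separate animals, so p-values measure the spread between samples, which may be technical. The limma step was tested on simulated data.

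Members and lists were chosen with earlier results of these data known. Named genes are the 4 members, the 3 of smallest p per list, 13 further genes given whatever their values, 3 nearest profiles per member, overlapping rows and defining markers. Others, such as Il4 and Il17f, were chosen after their values were seen. Some genes of the rule and lists are not reported here, and list counts leave them out. Alternatives covered pseudocount, filter, variance model, scaling, covariate, replicate block, voom and each library left out. Counts of list members relative to the T cell markers, with the epithelial covariate, without KO 2 and without WT 1 were added after the data were seen.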

Additional observations from a re-analysis of the deposited data

How the results depend on the processing

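Across 19 other settings, 37 of the 62 genes followed had the same direction throughout. Maf ran from -0.96 to -0.45 and Ahr from -0.36 to -0.0036 without a turn, though Ahr was close to level at the upper end. With array weights 582 genes passed the threshold (357 lower and 225 higher in KO), Maf among them (-0.94, limma adjusted p = 0.0230); without WT 1 there were 14, and 0 in every other fit run, where 569 to 3122 genes had an unadjusted p under 0.05. The cause was not tested. Planned fits with edgeR and DESeq2 were not run, because the deposited TPM are not counts. Voom was the only fit run on the recovered reads. Leaving out each library gave 0 to 14 genes past the threshold, -0.96 to -0.70 for Maf, -0.36 to -0.21 for Ahr, -0.32 to -0.06 for Rora, -0.09 to 0.16 for Stat3 and -0.30 to 0.11 for the log2 ratio of Ahr to Rora, which turned without KO 1. The same leave-one-out ranges were -0.04 to 0.33 for Nr1d2, -0.11 to 0.14 for Ndel1, -0.05 to 0.14 for Kif13b, -0.02 to 0.17 for Sub1, -0.14 to 0.08 for Ikzf2, -0.06 to 0.52 for Csf1r and -0.16 to 0.37 for Adgre1. The replicate block gave -0.80 for Maf, -0.26 for Ahr, -0.17 for Rora, 0.04 for Stat3 and 0 genes past the threshold. Same-numbered libraries had correlations of deviations of 0.0037, -0.219 and -0.0408. These values show no sign of pairing by number, but with so few libraries they cannot exclude it.

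Directions turned as follows. Relative to the T cell markers, Rora was 0.06, Stat5b 0.02, Socs3 0.03, Pias3 0.04, Mcl1 0.03, Ikzf2 0.16, Fam110a 0.02, Cers4 0.07, Wdr20 0.02 and Cd4 0.00023. With the epithelial covariate, Stat3 was -0.06, Il27ra 0.06, Pias3 0.12, Ugt1a6a -0.30, Nqo1 -0.30, Ikzf2 0.24, Rgs10 0.05, Nup153 0.05, Ndel1 -0.13, Kif13b -0.03, Sub1 -0.04, Cd3e 0.05, Csf1r -0.49, Cd68 -0.29, Adgre1 -0.32 and Epcam -0.09. With quantile normalization Stat3 was -0.01, with TPM rescaled to the same sum Ndel1 was -0.01, and with array weights Adgre1 was -0.01. Without KO 1, Stat3 was -0.09, Nr1d2 -0.04, Ndel1 -0.11, Kif13b -0.05 and Sub1 -0.02. Without KO 2, Ikzf2 was 0.08, Ndel1 -0.01, Csf1r -0.06 and Adgre1 -0.14. Without WT 1 Adgre1 was -0.16, and without WT 3 Ndel1 was -0.03.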

Other observations

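Several genes outside the 4 factors had their highest value in KO 1, as Rora and Stat3 did. They were picked after their values were seen. Jak2, the kinase of several cytokine receptors, stood at 439.3, 313.4 and 281.9 TPM in KO libraries and at 329.5, 314.0 and 292.4 TPM in WT libraries. Il1rl1, the IL-33 receptor of tissue Tregs, stood at 428.3, 216.2 and 194.2 TPM in KO libraries and at 174.0, 151.8 and 130.7 TPM in WT libraries. Id2, an inhibitor of bHLH factors, stood at 881.0, 621.9 and 586.8 TPM in KO libraries and at 698.5, 673.5 and 635.1 TPM in WT libraries. Maf and Ahr instead had their highest KO value in KO 3. With 1 library showing this pattern, it was not tested.

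Il22, a cytokine that AHR and ROR receptors both drive, varied more among the libraries of a group than between groups. It stood at 159.4, 171.6 and 45.3 TPM in KO libraries and at 175.6, 133.4 and 63.2 TPM in WT libraries (-0.08, limma adjusted p = 0.954).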
